A study of Mus musculus with 6 samples.

Results

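The 10 genes described here encode surface molecules through which macrophages and lymphocytes exchange activating and inhibitory signals: Cd40, Cd69, Cd80, Cd86, Icosl, Cd274, Cd28, Cd84, Slamf7 and Cd244a. They were chosen by gene symbol, and all 10 were measured among 18820 tested genes. Their RNA was measured in macrophages grown from the bone marrow of GPS2KO mice and of wild-type (WT) mice, with 3 arrays in each group. Per the labels, all donors were male and 12 to 16 weeks old, marrow was grown for 7 days in medium with 30% L929-conditioned supernatant, and no stimulus was given to either group. L929 cells, a mouse fibroblast line, secrete the growth factor that macrophages need. The labels call the knockout KO, macrophage KO or MKO, and the Cre driver and deleted exons are not given in the sources used here. Nothing in the labels says that each array comes from its own animal, and the spread behind each p-value may therefore be technical.

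T cells respond fully to an antigen only when a second, costimulatory signal accompanies it. CD80 and CD86, the B7 molecules of antigen-presenting cells, deliver it through CD28 on the T cell or withhold it through CTLA-4, while PD-L1 (Cd274) inhibits through PD-1 and ICOS ligand (Icosl) acts through ICOS. CD40 works in the other direction, carrying a signal from CD40 ligand on T cells into the macrophage and on to NF-kappaB. Receptors of the SLAM family bind mostly to themselves or to each other on neighbouring cells and signal through small adaptors of the SAP group, and CD69, a C-type lectin-like molecule, is an early mark of leukocyte activation that binds the sphingosine 1-phosphate receptor.

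Gps2, the targeted gene, was at log2 signals of 10.29, 10.16 and 10.19 on the GPS2KO arrays, against 10.94, 10.93 and 11.00 on the WT arrays, or 59.7% of the WT signal (adjusted p = 0.000256, limma with Benjamini-Hochberg adjustment). Correlations across genes ran from 0.9989 to 0.9991 between arrays of a group and from 0.9977 to 0.9981 between groups, and no array stood apart. The 9 tested macrophage markers averaged 12.09 to 12.10 on the GPS2KO arrays and 12.00 to 12.04 on the WT arrays. Itgam and Mertk among them rose, which is 22.2% of the list, beside 2.9% of all tested genes that rose. The call of Itgam was lost under 7 of 13 alternative settings. Fibroblast and stromal markers were also present, since 1 of 10 lay under 5.49, the limit below which a gene is called dim here (the 40th percentile of all tested genes). They averaged 8.76 to 8.82 in GPS2KO and 8.79 to 8.85 in WT. Single markers ran from Lum, with means of 4.16 in GPS2KO and 4.02 in WT, to Postn, with 12.19 and 12.24. Like Postn, Col1a1 (11.77 in GPS2KO and 11.97 in WT) was close to the macrophage marker averages. By limma 3 fell (Col1a1, Pdgfrb, Thy1) and 1 rose (Dcn), thus 40% of the list, beside 6.72% of all tested genes called in either direction. Of these calls, that of Pdgfrb held under all 13 settings, while Col1a1 lost it under 6, Dcn under 5 and Thy1 under 4. Of 9 tested neutrophil markers, 7 of them dim, 1 passed the threshold: Ngp, a granule protein gene, rose by 0.46 (limma adjusted p = 0.0151) and lost the call under 4 settings. The part of these stromal and neutrophil transcripts in the results below was not tested.

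In the GPS2KO cultures, Cd28, Cd274, Cd84, Cd86 and Slamf7 rose, while Cd69, Cd40, Cd244a and Icosl fell. Cd80 did not pass the threshold. The differences, GPS2KO minus WT on the log2 scale, ran from -1.05 for Cd69 to 0.54 for Cd28, with a median of 0.10, against a median of -0.01 over all tested genes. A gene was said to rise or fall at a limma adjusted p under 0.05, with the adjustment made over all 18820 genes. By that rule 5 of the 10 genes rose and 4 fell, beside 2.9% of all tested genes that rose, 3.83% that fell and 6.72% called in either direction. The arrays of the groups did not overlap for 9 of the 10 genes, beside 27.1% of all tested genes. The genes were picked with results of this comparison known, so their share of calls is a description of them and supports nothing further. No gene of the 10 was dim over all arrays. In RNA of whole cultures, fewer cells that express a gene and less RNA per cell cannot be told apart. An exact permutation test of a single gene over 6 arrays cannot go below p = 0.1, which the 9 called genes reached.

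How firmly the calls stand differed between the genes. Cd28, Cd274, Cd84, Cd69 and Cd40 kept their call under all 13 alternative settings, and Cd86, Icosl, Cd244a and Slamf7 lost it under at least 1. Without WT replicate 2, GPS2KO replicate 1 or GPS2KO replicate 2, only 3 of the genes rose past the threshold, in place of 5. Without any 1 of the WT arrays, 2 fell past it, in place of 4. In a fit over all 21218 probe sets with 1 symbol, which is not among the 13 settings, Cd86 (limma adjusted p = 0.0525) and Icosl (0.0513) also lost the call.

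**Figure D1:**
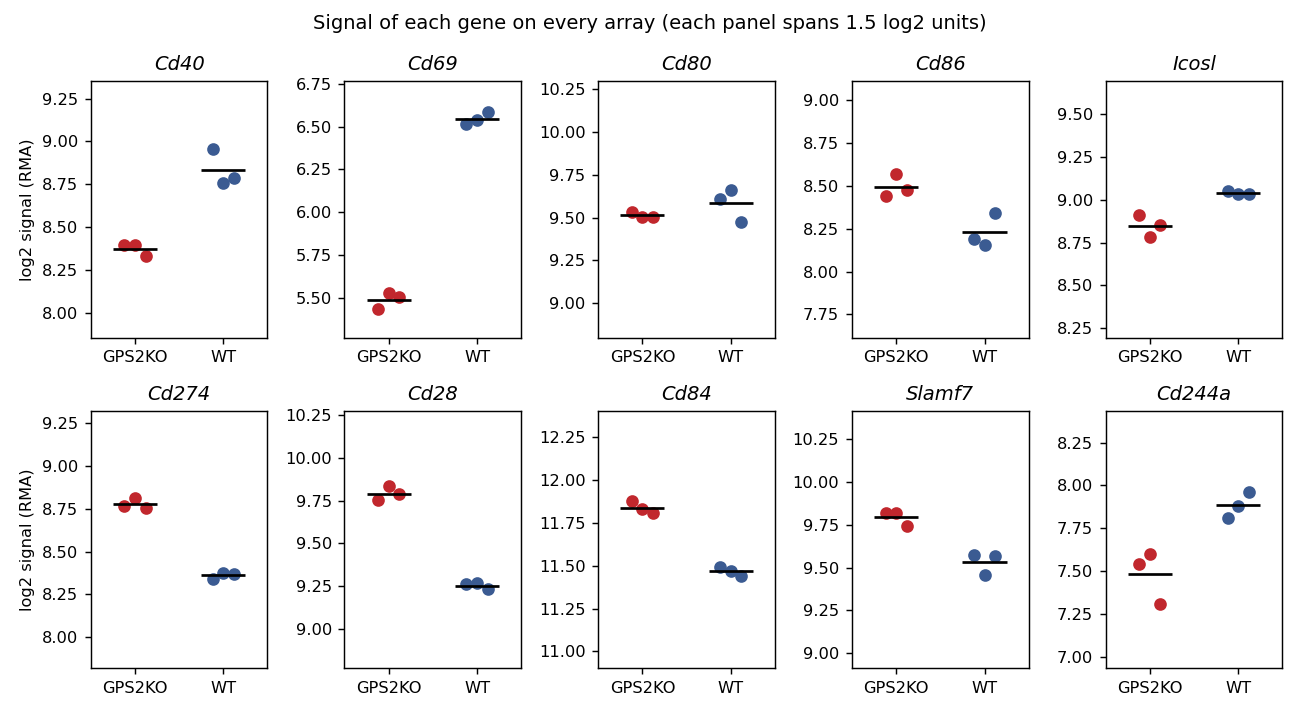
Log2 signal of the 10 genes on each array, with GPS2KO points in red on the left and WT points in blue on the right of each panel. Black bars are group means (n = 3 each), and all panels span the same height on the log2 scale. The groups overlap only for Cd80, and Cd69 has the widest gap, with GPS2KO points at 5.43 to 5.53 below WT points at 6.51 to 6.58.

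Cd69 had the largest change. Its signals were 5.43, 5.53 and 5.51 on the GPS2KO arrays, against 6.51, 6.54 and 6.58 on the WT arrays. All 3 GPS2KO values lay close to the dim limit and far under the lowest WT value. Cd69 fell by 1.05 (SE 0.0433, 95% confidence interval -1.16 to -0.95; limma adjusted p = 4.77e-05), to 48.1% of the WT signal, and ranked 27 by size of change among all tested genes. The GPS2KO mean of 5.49 lies at the dim limit, which is a rank among genes and not a measured background. Whether background compressed the size of this fall was not tested. Under the alternatives its adjusted p stayed at or below 0.000988.

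Cd40, the receptor through which T cells activate macrophages and dendritic cells, was at 8.39, 8.39 and 8.33 in GPS2KO and at 8.96, 8.76 and 8.78 in WT. The GPS2KO arrays were close together (SD 0.0364), while the first WT array stood above the other WT arrays. Cd40 fell by 0.46 (SE 0.0594, interval -0.60 to -0.32; limma adjusted p = 0.00417), to 72.7% of the WT signal.

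The B7-type ligands did not move as a group. Cd80 was at 9.53, 9.50 and 9.51 in GPS2KO and at 9.61, 9.66 and 9.48 in WT, so that the third WT array lay below all GPS2KO arrays and the groups overlapped. Its difference was -0.07 (SE 0.0532, interval -0.19 to 0.06; limma adjusted p = 0.527), which does not show that its level was equal in both groups. A second, fainter Cd80 probe set differed by -0.02 (SE 0.0763; limma adjusted p = 0.909 over all probe sets with 1 symbol).

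Cd86, which shares its receptors with CD80, was at 8.44, 8.57 and 8.48 in GPS2KO and at 8.19, 8.16 and 8.34 in WT. The highest WT value, on the third array, lay only a little below the lowest GPS2KO value. Cd86 rose by 0.26 (SE 0.0611, interval 0.12 to 0.41; limma adjusted p = 0.0452), or 1.20-fold. The call is close to the threshold and was lost without WT replicate 1 (limma adjusted p = 0.13), WT replicate 2 (0.12), GPS2KO replicate 1 (0.0742), GPS2KO replicate 2 (0.142) or GPS2KO replicate 3 (0.108). With the replicate number as a block the call of Cd86 was also lost (limma adjusted p = 0.0831). The 95% intervals of Cd86 and Cd80 did not overlap, though the difference between the 2 changes was not itself tested.

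Icosl was at 8.91, 8.78 and 8.85 in GPS2KO and at 9.05, 9.03 and 9.04 in WT. The WT arrays were almost equal, and every GPS2KO array lay under them. Icosl fell by 0.19 (SE 0.0444, interval -0.29 to -0.09; limma adjusted p = 0.0461), or 1.14-fold, the smallest called change of the 10. Its call was lost when any array other than GPS2KO replicate 1 was left out (limma adjusted p 0.102 to 0.138). Quantile normalization (limma adjusted p = 0.0653), centring array medians (0.0796) and a block for the replicate number (0.0821) also lost it.

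Cd274, which encodes the inhibitory ligand PD-L1, moved the opposite way from Icosl. Its signals were 8.77, 8.82 and 8.76 in GPS2KO, against 8.34, 8.37 and 8.37 in WT, with little spread in either group. Cd274 rose by 0.42 (SE 0.0378, interval 0.33 to 0.51; limma adjusted p = 0.000883), or 1.34-fold. Its adjusted p lay between 3.25e-05 and 0.00788 under the alternatives.

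Cd28 had the largest rise. CD28 is known above all as the costimulatory receptor of T cells, yet its signals in these cultures were far above the dim limit, at 9.75, 9.84 and 9.79 in GPS2KO and at 9.26, 9.27 and 9.23 in WT. The lowest GPS2KO value stood well above the highest WT value. Cd28 rose by 0.54 (SE 0.0398, interval 0.45 to 0.63; limma adjusted p = 0.000411), or 1.45-fold. The T cell receptor complex genes Cd3d, Cd3e and Cd3g were dim, at 3.68 to 5.36 over all 6 arrays. Of 8 tested T cell markers 6 were dim, 1 rose (Cd4) and 1 fell (Cd5), and the 8 averaged 5.20 to 5.27 in GPS2KO and 5.19 to 5.26 in WT, ranges that overlap.

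Ctla4, Pdcd1, Icos and Cd40lg, which encode binding partners of some of these molecules, and Pdcd1lg2, the second ligand of PD-1, were named after their values were seen. All 5 were dim, unlike Cd28 itself, which binds CD80 and CD86, and Cd48, the ligand of CD244. The 5 dim genes lay between 3.90 and 5.18 on every array, and differed by -0.08 to 0.02, with 0 past the limma threshold and 0 at an unadjusted p under 0.05.

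**Figure D2:**
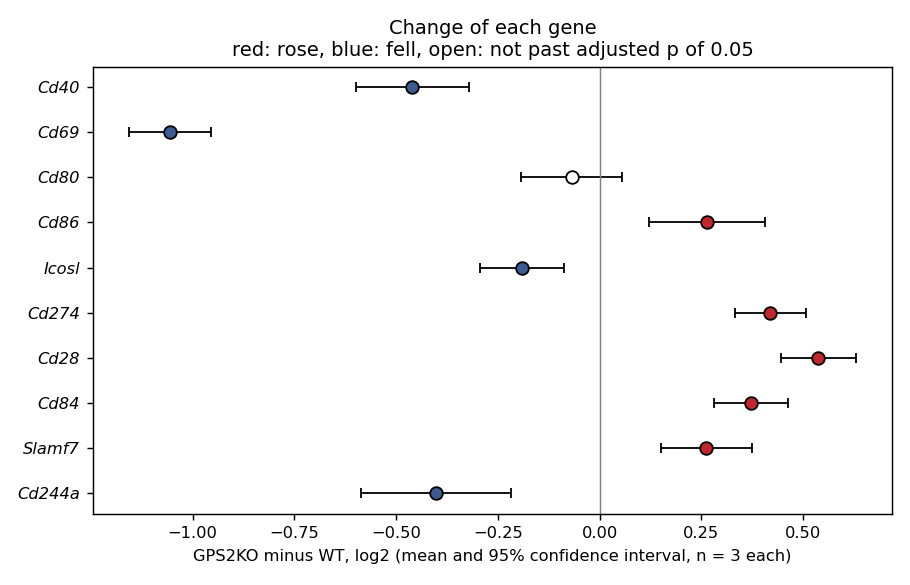
Difference between GPS2KO and WT for each of the 10 genes on the log2 scale, with 95% confidence intervals from limma (n = 3 arrays each). Genes to the right of 0 are higher in GPS2KO. Intervals exclude 0 for all genes but Cd80, from -1.05 for Cd69 to 0.54 for Cd28.

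The SLAM-family members Cd84, Slamf7 and Cd244a lie near each other on mouse chromosome 1, in a cluster with other genes of the family, and they moved in both directions. Cd84 is a self-binding receptor of myeloid and lymphoid cells. Its signals were 11.88, 11.83 and 11.81 in GPS2KO, against 11.49, 11.47 and 11.44 in WT, which do not overlap. Cd84 rose by 0.37 (SE 0.0390, interval 0.28 to 0.46; limma adjusted p = 0.00167), or 1.30-fold.

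Slamf7, also a self-binding receptor, was at 9.82, 9.82 and 9.74 in GPS2KO and at 9.58, 9.45 and 9.57 in WT. The second WT array was the lowest, and no WT array reached the GPS2KO range. Slamf7 rose by 0.26 (SE 0.0485, interval 0.15 to 0.38; limma adjusted p = 0.0185), or 1.20-fold. The call was lost without WT replicate 2 (limma adjusted p = 0.0514), GPS2KO replicate 1 (0.0695) or GPS2KO replicate 2 (0.0756). A block for the replicate number also lost it (limma adjusted p = 0.0531).

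Cd244a encodes 2B4, a receptor best known on natural killer cells, whose ligand is CD48. Its signals were 7.54, 7.60 and 7.31 in GPS2KO and 7.81, 7.88 and 7.96 in WT. The third GPS2KO array was clearly lower than the others, which gave this gene the widest spread in GPS2KO among the 10 (SD 0.153). Cd244a fell by 0.40 (SE 0.0793, interval -0.59 to -0.22; limma adjusted p = 0.0252), to 75.7% of the WT signal. Its call was lost without WT replicate 1 (limma adjusted p = 0.0508), WT replicate 2 (0.0727), WT replicate 3 (0.0894) or GPS2KO replicate 1 (0.0562). A block for the replicate number also lost the call of Cd244a (limma adjusted p = 0.0616). All 9 tested natural killer cell markers were dim, at 3.32 to 5.22, and averaged 4.11 to 4.18 in GPS2KO and 4.14 to 4.18 in WT.

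Within the cluster the called genes were not next to each other. In the RefSeq gene order of assembly GRCm38.p6, counting protein-coding genes, Ly9 lies between Cd244a and Slamf7, and Cd48, Slamf1 and Tma7-ps, the last not analysed here, lie between Slamf7 and Cd84. Ly9 differed by -0.15 (limma adjusted p = 0.0713), Cd48, the ligand of 2B4, by 0.04 (0.573) and Slamf1 by 0.01 (0.905). Beyond the ends, Itln1 beside Cd244a differed by -0.09 (0.676) and Slamf6 beside Cd84 by -0.08 (0.555). Ly9 passed the threshold once a variance trend was fitted (0.00401) or dim genes were removed (0.0275).

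The start regions of these 3 genes are shown because the genes share a cluster but changed in opposite directions, and that of Cd274 as the ligand with the largest rise. The table of RefSeq promoter windows used here (GRCm38.p6) was matched for 6 of the 10 genes: Cd244a, Slamf7, Cd84, Icosl, Cd80 and Cd274. The 250 bases before the start are printed 5′ to 3′ on the strand of the gene, for Cd84 at chr1:171839447-171839696 on the plus strand, for Slamf7 at chr1:171649000-171649249 on the minus strand, for Cd244a at chr1:171558943-171559192 on the plus strand and for Cd274 at chr19:29367188-29367437 on the plus strand. Capitals mark every match to the motifs searched.
Cd84: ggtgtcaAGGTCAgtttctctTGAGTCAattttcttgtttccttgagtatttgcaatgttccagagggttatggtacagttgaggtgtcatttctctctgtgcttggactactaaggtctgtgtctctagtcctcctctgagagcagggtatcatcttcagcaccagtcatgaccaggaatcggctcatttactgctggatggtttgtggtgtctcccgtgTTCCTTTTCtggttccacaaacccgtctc
Slamf7: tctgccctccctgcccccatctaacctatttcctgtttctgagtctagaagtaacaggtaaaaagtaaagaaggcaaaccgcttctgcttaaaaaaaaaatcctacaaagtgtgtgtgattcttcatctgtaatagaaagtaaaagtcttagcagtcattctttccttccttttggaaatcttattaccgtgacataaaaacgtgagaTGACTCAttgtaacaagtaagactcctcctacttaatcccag
Cd244a: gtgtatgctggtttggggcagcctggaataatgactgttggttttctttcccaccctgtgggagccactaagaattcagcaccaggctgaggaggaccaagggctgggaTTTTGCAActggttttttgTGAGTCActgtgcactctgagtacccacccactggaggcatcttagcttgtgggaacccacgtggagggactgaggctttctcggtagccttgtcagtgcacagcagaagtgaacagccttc
Cd274: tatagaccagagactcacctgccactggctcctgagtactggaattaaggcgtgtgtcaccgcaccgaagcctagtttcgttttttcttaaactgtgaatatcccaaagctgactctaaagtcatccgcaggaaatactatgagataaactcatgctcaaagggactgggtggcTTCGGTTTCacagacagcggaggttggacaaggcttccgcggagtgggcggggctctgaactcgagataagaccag

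Both strands of each window were searched for 7 motifs. The AP-1 motif TGANTCA, in which N is any base, was present in the windows of all 3 SLAM-family members and in that of Cd80, thus in 4 of the 6 windows, and in 6.75% of all 32851 windows in the table. The match in Slamf7 is TGACTCA, at 42 to 36 bases before the start, that in Cd84 is TGAGTCA, at 229 to 223 bases, and that in Cd244a is TGAGTCA, at 122 to 116 bases. The motif thus occurred beside a fall, beside rises and beside Cd80, which was not called. Cd84 also held the nuclear receptor motif AGGTCA, found in 14% of all windows, and Cd244a the C/EBP motif TTGCNNAA on the other strand, found in 9.56%. The interferon response core GAAANNGAA, present in 7.13% of all windows, matched on the other strand in Cd274, at 76 to 68 bases before the start, and in Cd84, at 29 to 21 bases. A form longer by 1 base, which was tried first, was in 0 of the 6 windows and in 2.98% of all. The STAT motif TTCNNNGAA (7.02%), the NF-kappaB motif GGNNTTTCC (4.93%) and the PU.1 core GAGGAA (23.3%) were in 0 of the 6 windows. An NF-kappaB form longer by 1 base, also tried first, was in 0 of the 6 and in 1.41% of all. Such matches describe letters in a short window and show no binding.

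The genes that work with these molecules were read from 4 lists with 54 tested members. By limma 0 of them rose, 7 fell and 47 did not pass, beside 2.9% and 3.83% of all tested genes that rose and fell. At an unadjusted limma p under 0.05, 2 were higher and 18 lower, beside 1672 higher and 2234 lower of all 18820 tested genes. The median of the 54 was -0.07. A variance trend gave 14 falls and 1 rise, and removal of dim genes 13 falls and 2 rises. The lists were chosen with earlier results of these data known.

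The list of CD40 signalling held 16 genes, of which Traf3, Chuk and Nfkb1 were not analysed. Of the 13 tested, 0 were dim, whereas 40% of all tested genes are dim by definition. By limma 3 fell and 0 rose (7 lower and 1 higher at an unadjusted p under 0.05), with a median of -0.13. The 3 called genes are 23.1% of the list, beside 6.72% of all tested genes called in either direction. Traf1, an adaptor at the receptor's tail, was at 6.61, 6.27 and 6.28 in GPS2KO and at 7.19, 7.18 and 7.05 in WT, and fell by 0.76 (SE 0.0943; limma adjusted p = 0.00354). Relb, an NF-kappaB subunit of the non-canonical pathway, fell by 0.61 (SE 0.0484; adjusted p = 0.000521). Its partner Nfkb2 was at 9.79, 9.84 and 9.83 in GPS2KO and at 10.19, 10.22 and 10.26 in WT, and fell by 0.40 (SE 0.0393; limma adjusted p = 0.00131). These falls were called under all 13 alternatives, as was that of Cd40 itself.

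Of 13 other SLAM-family receptors, adaptors and phosphatases, 3 were dim. By limma 3 of the 13 fell and 0 rose (4 lower and 0 higher at an unadjusted p under 0.05), with a median of -0.13. The 3 called genes are 23.1% of the list, beside 6.72% of all tested genes called in either direction. Sh2d1b1 encodes EAT-2, an adaptor that binds the tails of SLAM receptors. It was at 8.066, 7.999 and 8.001 in GPS2KO, against 8.561, 8.666 and 8.644 in WT, and fell by 0.60 (SE 0.0445; limma adjusted p = 0.000411), while Cd84 and Slamf7 rose. Slamf9, a receptor of the family expressed in myeloid cells, was at 10.49, 10.34 and 10.31 in GPS2KO and at 10.81, 10.78 and 10.85 in WT, and fell by 0.43 (SE 0.0550; limma adjusted p = 0.00417). The phosphatase Ptpn6, which encodes SHP-1, fell by 0.24 (SE 0.0384; limma adjusted p = 0.0102).

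Of 15 genes of the costimulatory TNF and TNF receptor superfamily, 12 of them dim, 1 fell and 0 rose by limma (4 lower and 0 higher at an unadjusted p under 0.05), with a median of -0.05. The 1 called gene is 6.67% of the list, about the 6.72% of all tested genes called in either direction. The fall was that of Tnfsf14, which encodes the ligand LIGHT, at 6.07, 6.01 and 5.93 in GPS2KO and at 6.52, 6.81 and 6.65 in WT (-0.66, SE 0.0758; limma adjusted p = 0.00257). The list of 13 further genes, mostly B7 ligands and CD28-family receptors, also held Havcr2 and Timd4, which belong to neither family. Of the 13, 10 were dim and 0 passed the threshold in limma. At an unadjusted limma p under 0.05, 3 were lower (Cd276, Havcr2 and Timd4) and 1 was higher. The median of the 13 was 0.0036. Cd276, which encodes B7-H3, had the smallest p of these, at 10.20, 10.22 and 10.18 in GPS2KO and at 10.32, 10.46 and 10.56 in WT (-0.25, SE 0.0621; limma adjusted p = 0.061). It passed without WT replicate 1 (0.0203), once a variance trend was fitted (0.00567) or once dim genes were removed (0.0299), and with the mean of its 2 probe sets the difference was -0.16 (adjusted p = 0.36).

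**Figure D3:**
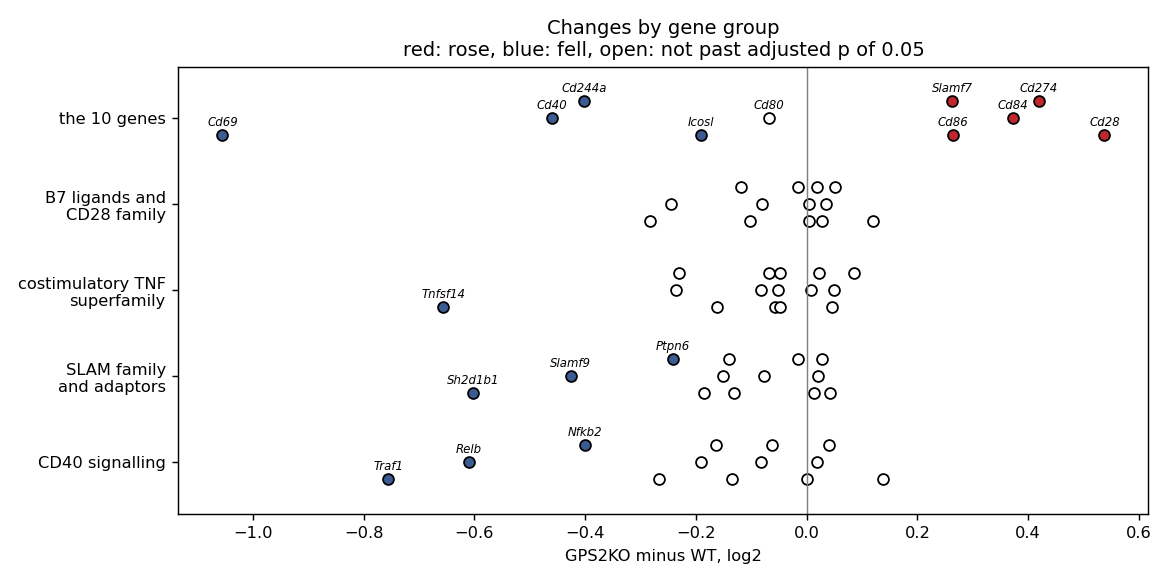
Differences between GPS2KO and WT on the log2 scale for the 10 genes (top row) and for the tested genes of 4 related lists, 1 point a gene, named for the 10 genes and for those past the threshold; vertical position within a row has no meaning. Rises past the threshold appear only in the top row, and 7 genes of the related lists fell, from Traf1 at -0.76 to Ptpn6 at -0.24.

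For the largest rise and the largest fall, the genes with the nearest profiles were sought among 17416 named genes. Genes annotated as other than protein-coding were left out, and those without such an annotation were kept. Profiles over the 6 arrays were centred on their WT mean and compared by root mean square distance. Nearest to Cd28 were Eps8 (distance 0.0255 on the log2 scale, difference 0.52), Gab3 (0.0298, difference 0.54) and Nxpe5 (0.0357, difference 0.51). Nearest to Cd69 were the class II chain gene H2-Aa (0.0884, difference -1.09), the chemokine receptor gene Ccr2 (0.0973, difference -0.97) and the lectin receptor gene Clec4e (0.0990, difference -1.05). The neighbours of Cd69 lay farther from it than those of Cd28, and with 6 arrays in 2 groups a near profile mostly means a change of like size.

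**Figure D4:**
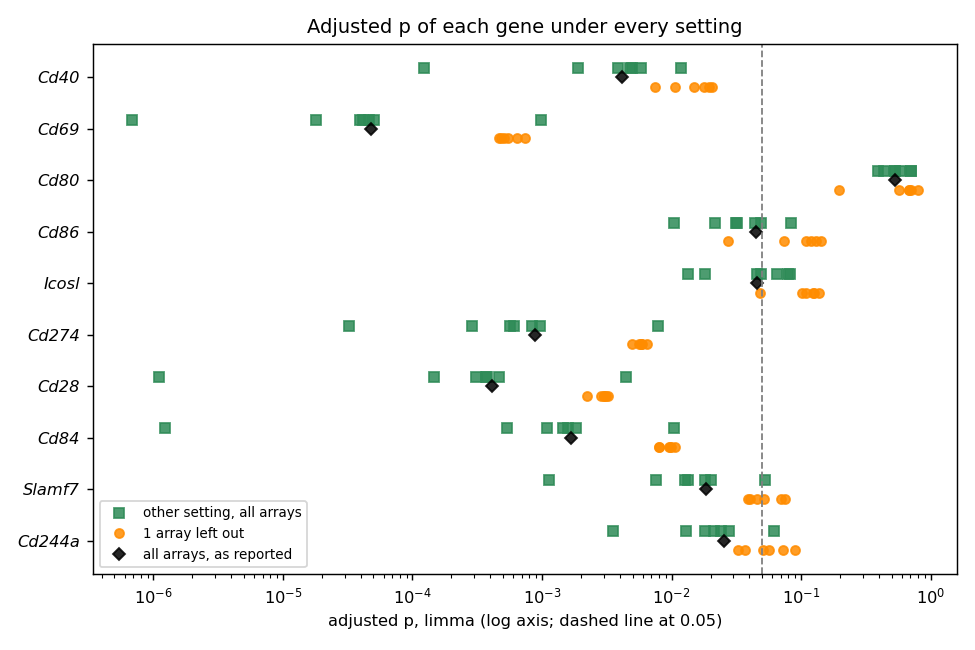
Limma adjusted p of each of the 10 genes on a log axis, as reported (black diamonds), with 1 array left out (orange circles) and under the other settings with all arrays (green squares). Points to the right of the dashed line have an adjusted p above 0.05 and are not called. All points of Cd40, Cd69, Cd274, Cd28 and Cd84 lie left of the line, all of Cd80 lie right of it, and those of Cd86, Icosl, Slamf7 and Cd244a lie on both sides.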

How the data were processed

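RNA of 6 samples was measured on Affymetrix arrays, 1 each. The deposited values are log2 signals per probe set, made by the authors with RMA in the R package oligo, per the submitters' processing notes; versions are not given in the sources used here. RMA normalizes across arrays, so a shift of most genes would not be seen, and it gives no detection calls. Precision is limited by the number of arrays.

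Of 35556 probe sets, GEO's platform annotation gave 1 symbol for 21218, several for 1881 and none was listed for 12457. The probe set with the highest mean stood for each gene, which left 18820 genes. All 10 members matched RefSeq by gene number. Tests used limma 3.58.1 under R 4.3.3 (lmFit, eBayes, group as the only term), 2-sided, with Benjamini-Hochberg adjustment and a threshold of 0.05. The members, lists and alternatives were chosen with earlier results of these data known. Named were the members and up to 6 called genes per related list, or else the gene of smallest p. Also named were the genes beside or between the SLAM members, the 3 nearest profiles to the largest rise and fall, and Gps2. After their values were seen, called markers, Ebf1, Lum, Postn, Cd3d, Cd3e, Cd3g, Havcr2, Timd4 and binding partners were added. The script was first tested on simulated data.

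Both groups carry replicate numbers 1 to 3 in the labels. Deviations of same-numbered arrays from their group means correlated at 0.0035, 0.026 and -0.0060. No strong effect shared by same-numbered arrays was seen, but 3 arrays a group cannot exclude that they were prepared together. The alternatives were quantile normalization, centring of array medians, a variance trend, a robust variance, removal of dim genes, the mean of all probe sets of a gene, a replicate block and leaving out each array in turn.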

Additional observations from a re-analysis of the deposited data

How the results depend on the processing

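Of 130 values of the 10 genes under 13 alternatives, 107 kept their direction and side of the threshold, 23 kept their direction but lost the call and 0 turned. Cd80 stayed uncalled under each. Among all tested genes, 545 rose and 720 fell; leaving out 1 array gave 322 to 376 rises and 419 to 503 falls, and a variance trend gave 926 rises and 1248 falls, while 1154 fell without dim genes. The 10 genes gave 3 to 5 rises and 2 to 3 falls with 1 array left out, where fewer samples entered the fit. With the replicate number as a block, 3 of them rose (Cd28, Cd274, Cd84) and 2 fell (Cd40, Cd69), and all tested genes gave 370 rises and 492 falls. The related lists gave 1 rise and 14 falls under that trend, 2 and 13 once dim genes were removed, and 0 rises and 7 to 9 falls with 1 array left out. The share of rises among all calls was 43.1%, against 53.7% after centring array medians and 48.9% after quantile normalization; under either, 5 of the 10 genes rose and 3 fell, Icosl being lost. Gps2 fell under all 13. The uncalled difference of Itln1 turned to 0.0108 with the mean of its probe sets and ran from -0.164 to 0.0141 with 1 array left out, and that of Slamf1 ran from -0.0170 to 0.0334. The cause of the changes under a variance trend was not tested. Signal near or under the dim limit restricts what can be said of Cd69 in GPS2KO and of most lymphocyte genes.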

Other observations

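Beside Cd28 and Cd244a, other surface genes named for lymphocytes changed in these macrophage cultures. The T cell markers Cd3d, Cd3e and Cd3g were dim, as were 6 of 9 tested B cell markers. Ebf1, on the B cell list, encodes a transcription factor and no surface molecule, and was not dim. It was at 8.952, 9.057 and 9.003 in GPS2KO and at 9.148, 9.193 and 9.279 in WT. Its difference of -0.20 (SE 0.0495, limma adjusted p = 0.0542) did not pass the threshold. Which cells of the cultures gave the Ebf1 signal was not tested. Cd4, the coreceptor of helper T cells, was at 9.19, 9.12 and 9.24 on the GPS2KO arrays and at 8.74, 8.77 and 8.74 on the WT arrays, and rose by 0.43 (SE 0.0435; limma adjusted p = 0.00142). Cd22, an inhibitory Siglec of B cells, was at 7.83, 7.73 and 7.85 in GPS2KO and at 7.45, 7.55 and 7.44 in WT, and rose by 0.32 (SE 0.0514; limma adjusted p = 0.0104). Cd79b, a chain of the B cell receptor, was at 6.85, 6.73 and 6.69 in GPS2KO and at 7.13, 7.27 and 7.23 in WT, and fell by 0.46 (SE 0.0575; limma adjusted p = 0.00373). Cd5, a coreceptor of T cells, was at 5.36, 5.46 and 5.70 in GPS2KO and at 5.95, 5.99 and 5.87 in WT, and fell by 0.44 (SE 0.0850; limma adjusted p = 0.024). The call of Cd5 was lost when any array but GPS2KO replicate 3 was left out (adjusted p 0.0569 to 0.0897), and with the replicate block (0.0546). In these marker lists 2 of 8 tested T cell genes and 2 of 9 tested B cell genes passed the threshold, beside 6.72% of all tested genes, while 0 of 9 natural killer cell and 0 of 10 dendritic cell genes did in limma, with 0 in either list at an unadjusted p under 0.05. All 9 natural killer cell genes and 7 of the 10 dendritic cell genes were dim. Also passing were 2 of 9 macrophage, 1 of 9 neutrophil and 4 of 10 fibroblast genes.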
